A study of Agaricus bisporus with 16 samples.

Results

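Alternative oxidase and alternative NADH dehydrogenase genes were followed in mycelium of the button mushroom, Agaricus bisporus, growing in compost. The members are the 3 genes AOX, NDE1 and NDE2, taken by the gene ids '152135', '226574' and '227697', which match the locus tags AGABI2DRAFT_152135, AGABI2DRAFT_226574 and AGABI2DRAFT_227697. All 3 are among the 9520 genes listed in every file and among the 8818 genes that were tested. Sequencing libraries were made from compost colonised by 1 of 4 strains, namely A15, which is grown commercially, 219 30P, 245 AMA-7 or 065 BP-8. Samples date from day 27 of the culture, when pins (mushroom primordia) were forming, and from day 39, when mushrooms came up in their first flush. The 8 groups of strain and day hold 2 libraries each, 16 in all, and every group grew on the same kind of wheat straw and manure compost under a casing layer. The series asked how strains and life cycle stages differ in expression, with an interest in compost components that A15 uses poorly.

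In the main respiratory chain, complex I takes electrons from NADH, ubiquinone carries them to complex III, and cytochrome c hands them to complex IV, which reduces oxygen. Alternative oxidase takes electrons from ubiquinol directly to oxygen, so that complexes III and IV are bypassed and no protons are pumped on that stretch. Alternative NADH dehydrogenases are single-protein enzymes of the inner mitochondrial membrane that pass electrons from NADH to ubiquinone without pumping protons, beside complex I. In the yeast Saccharomyces cerevisiae, which has no complex I, the enzymes named NDE1 and NDE2 oxidize NADH of the cytosol. In the mould Neurospora crassa, alternative oxidase is known for being induced when the cytochrome route is blocked.

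Levels are in FPKM, which counts sequenced fragments by transcript length and by the size of the library. They are shares of a library's RNA from whole compost samples, so that fewer cells of a kind and less of an RNA per cell cannot be told apart. Library sums lay between 832823 and 913010 FPKM. From the steps between low values, the 3 genes rested on an estimated 125 to 2861 reads per library, and the counting error was at most 8.96%, for AOX in its lowest library. A change is a difference on the log2(FPKM + 1) scale, given with its standard error (SE) from limma, and a change was called at an adjusted p under 0.05 by the Benjamini-Hochberg method over all genes tested. Whether duplicates stem from separate crates is not said in the labels, and the p-values measure a spread between these samples that may be only technical. In the A15 files 918 genes of the other files are missing, so strain and table cannot be told apart in comparisons with A15.

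The 3 genes were expressed in every library at moderate levels. NDE2 was the steadiest, with a lowest value of 64.1, a median of 87.0 and a highest value of 121 FPKM over the 16 libraries. Among the tested genes it stood between percentiles 74.6 and 86.0 from the lowest in each library. NDE1 ran from 25.6 to 90.8 FPKM with a median of 48.4, between percentiles 44.8 and 81.8. AOX had a like median of 47.5 FPKM but the widest range of the 3, from 10.3 to 252 FPKM, between percentiles 24.1 and 93.7. Its lowest values were those of 245 AMA-7 on day 39, and its highest was 1 library of 065 BP-8 on day 27.

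**Figure D1:**
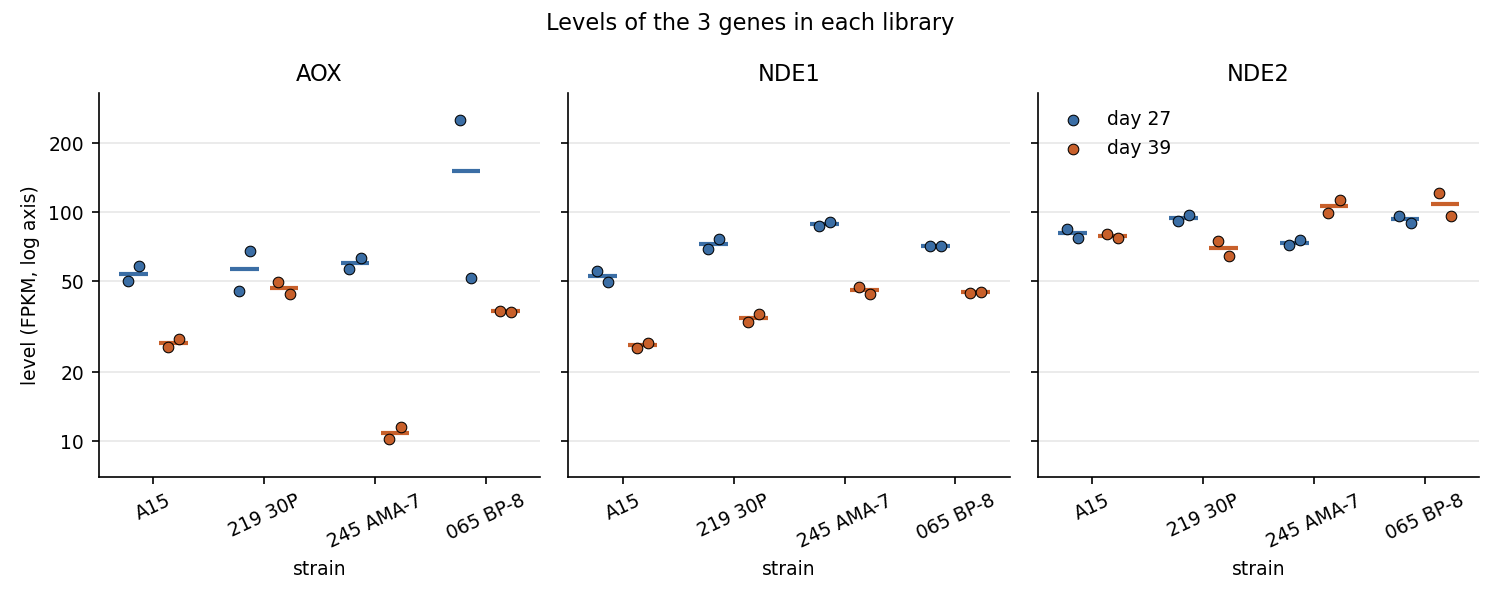
FPKM (log axis) of AOX, NDE1 and NDE2 in each of the 16 libraries, by strain, with day 27 in blue and day 39 in orange; points are libraries and horizontal lines the means of 2. NDE1 is lower on day 39 in every strain, the 8 values of AOX on day 39 run from 10.3 to 49.7 FPKM, and the 2 libraries of 065 BP-8 on day 27 stand apart for AOX (252 and 51.5 FPKM).

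NDE1 fell between pinning and the first flush in all 4 strains, by 1.57-fold to 2.07-fold. In A15 it stood at 55.1 and 49.8 FPKM on day 27 and at 25.6 and 26.8 FPKM on day 39. In 219 30P the values were 69.3 and 76.0 FPKM on day 27 and 33.0 and 36.1 FPKM on day 39. In 245 AMA-7, where the gene was highest at pinning, they went from 87.1 and 90.8 to 47.1 and 44.1 FPKM. The strain 065 BP-8 had 71.0 and 70.9 FPKM on day 27 and 44.4 and 45.0 FPKM on day 39. Within each strain both day 39 libraries lay below both day 27 libraries, and for how many of all genes this holds was not counted. The changes were -0.97 ± 0.09 (log2, SE) in A15, -1.05 ± 0.09 in 219 30P, -0.95 ± 0.09 in 245 AMA-7 and -0.65 ± 0.09 in 065 BP-8 (limma, adjusted p = 1.73e-06, 8.33e-07, 1.92e-06 and 4.06e-05). Averaged over the strains NDE1 fell 1.87-fold (-0.91 ± 0.04, adjusted p = 1.53e-09). Among the genes tested, 10.9% fell in each of the 4 strains and 32.5% fell in the mean. The median change of all genes was 0.11 in the mean, 0.24 in A15, -0.07 in 219 30P, 0.16 in 245 AMA-7 and 0.07 in 065 BP-8. In that mean 8.14% of the genes changed as far down as NDE1 or further.

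AOX was lower at the first flush than at pinning in the mean of the strains, by 2.45-fold (-1.29 ± 0.24, adjusted p = 0.000315), but strains and duplicates differed widely. In 245 AMA-7 it fell 5.11-fold (-2.35 ± 0.49, adjusted p = 0.00109), from 56.7 and 62.8 FPKM on day 27 to 10.3 and 11.5 FPKM on day 39. Only 1.18% of all genes changed as far down or further in that strain. In A15 the values were 49.9 and 57.9 FPKM on day 27 and 25.8 and 27.9 FPKM on day 39, both later libraries below both earlier ones. That difference of -0.98 ± 0.49 had an adjusted p of 0.0984 and was not called. In A15 62.3% of all genes were called, and for how many the libraries of the days do not overlap was not counted. In 219 30P AOX stood at 45.4 and 67.5 FPKM on day 27 and at 49.7 and 43.7 FPKM on day 39, so that the days overlapped (-0.24 ± 0.49, adjusted p = 0.683). The 95% interval of this difference ran from -1.30 to 0.81.

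In 065 BP-8 the day 27 duplicates of AOX disagreed, with 252 FPKM in replicate 1 and 51.5 FPKM in replicate 2, a ratio of 4.90. On day 39 this strain had 37.2 and 36.6 FPKM. The fall of -1.61 ± 0.49 passed (adjusted p = 0.0119), but leaving out replicate 1 of day 27 gave -0.47 (adjusted p = 0.0579), and leaving out replicate 2 gave -2.74. Between these duplicates only 30 of the 8818 genes (0.340%) were as far apart as AOX, 27 of them higher in replicate 1. Besides AOX, 1 of the 30 has a symbol, the laccase gene lcc12, with 658 and 33.6 FPKM. Of all genes 12.5% differed by more than 1.5-fold between these libraries, against 3.18% to 6.18% in the other groups. NDE1 and NDE2 did not part them: NDE1 was 71.0 and 70.9 FPKM, and NDE2 96.5 and 89.4 FPKM.

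The SE of AOX is shared by all groups and so carries the spread of this pair into every comparison. Without replicate 1 of 065 BP-8 on day 27, AOX in A15 passed at the same size (-0.98, adjusted p = 0.00021). The mean fall of the strains was then 2.02-fold (-1.01, adjusted p = 3.48e-07), and the change in 245 AMA-7 kept its size (-2.35, adjusted p = 1.89e-07). In 219 30P the difference still did not pass (adjusted p = 0.197). In that fit the day 27 group of 065 BP-8 has 1 library, which is taken to vary like the other groups.

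NDE2 did not pass a day test in the mean of the strains (0.07 ± 0.06, adjusted p = 0.323; -0.04 with median-ratio scaling), and its day changes had different signs in different strains. In 245 AMA-7 it rose 1.43-fold (0.52 ± 0.12, adjusted p = 0.00211), from 71.8 and 75.5 FPKM to 99.5 and 113 FPKM. In 219 30P it fell 1.35-fold (-0.44 ± 0.12, adjusted p = 0.00637), from 91.7 and 96.8 FPKM to 75.2 and 64.1 FPKM; without replicate 2 of day 39 this was -0.32 (adjusted p = 0.0708). The A15 values of 84.6 and 77.1 FPKM on day 27 overlapped with 80.5 and 77.2 FPKM on day 39 (-0.03 ± 0.12, adjusted p = 0.816). The size of this A15 change depended on the scaling. It was -0.29 with median-ratio scaling (adjusted p = 0.0524) and -0.13 with quantile normalization (adjusted p = 0.371), and was not called with either. In 065 BP-8 the values were 96.5 and 89.4 FPKM at pinning and 121 and 96.2 FPKM at first flush (0.21 ± 0.12, adjusted p = 0.134), or 0.38 without replicate 2 of day 39, which passed (adjusted p = 0.0255). Calls in opposite directions in at least 2 strains, as for NDE2, were made for 15.7% of all genes.

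**Figure D2:**
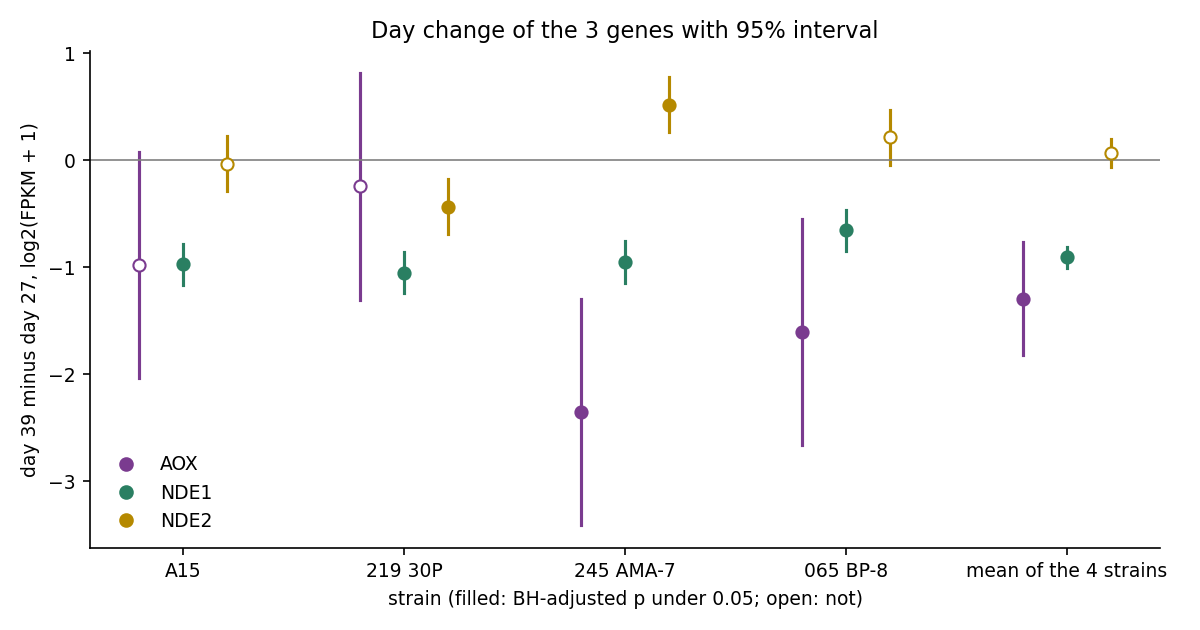
Difference of log2(FPKM + 1) between day 39 and day 27 for AOX, NDE1 and NDE2, by strain and averaged over the 4 strains; points are limma estimates, bars their 95% intervals, and filled points have an adjusted p under 0.05. NDE1 lies between -1.05 and -0.65 in the strains, while NDE2 lies on both sides of 0 and the intervals of AOX are the widest.

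Counted by strain, 1 of the 3 genes passed the day test in A15, 2 in 219 30P, 3 in 245 AMA-7 and 2 in 065 BP-8. Over all genes, 62.3%, 62.4%, 63.0% and 62.6% passed in these strains. For the average over strains, 2 of the 3 passed, against 77.5% of all genes.

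The balance between NDE1 and NDE2 shifted in every strain. The FPKM of NDE1 divided by that of NDE2 is not touched by a scaling of whole libraries; it was looked at after the values were seen and is given without a test. In A15 the ratio was 0.651 and 0.645 on day 27 and 0.318 and 0.347 on day 39. In 219 30P it was 0.756 and 0.785 on day 27 and 0.439 and 0.563 on day 39. The largest shift was in 245 AMA-7, from 1.21 and 1.20 to 0.473 and 0.391, a 2.81-fold decrease on the log scale. In 065 BP-8 it went from 0.736 and 0.793 to 0.367 and 0.468. Over all strains the 8 libraries of day 27 lay between 0.645 and 1.21 and the 8 of day 39 between 0.318 and 0.563, with no overlap. How often the ratios of other pairs of genes part the days in this way was not counted. Only in 245 AMA-7 at pinning was NDE1 the higher of the pair. How the authors' counting treats reads shared by related genes is not given in the sources used here.

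**Figure D3:**
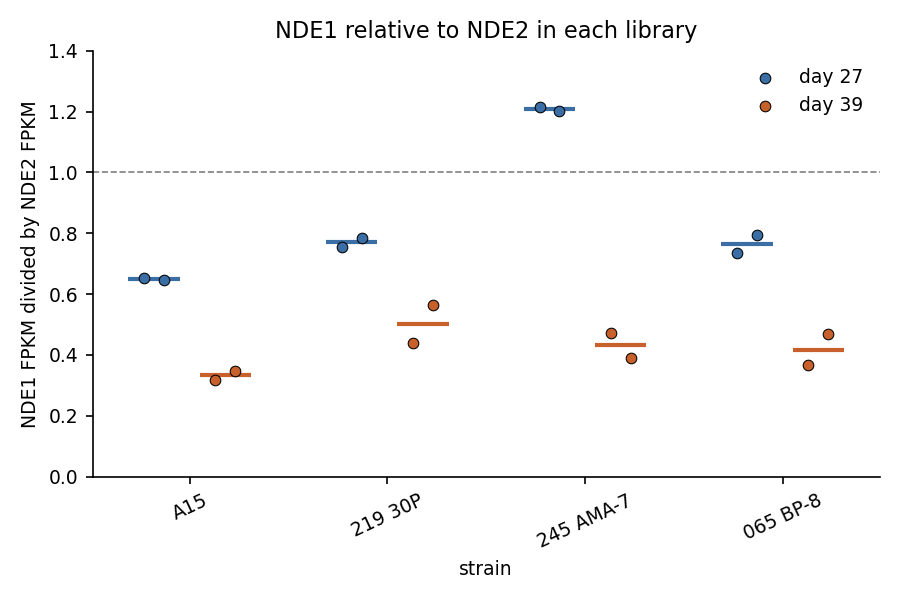
FPKM of NDE1 divided by FPKM of NDE2 in each of the 16 libraries, by strain, with day 27 in blue and day 39 in orange; points are libraries, horizontal lines means of 2, and the dashed line marks equal levels. In each strain both day 39 libraries lie below both day 27 libraries, and only the day 27 libraries of 245 AMA-7 (1.20 and 1.21) lie above 1.

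A test of whether the day change differed between the strains was passed by NDE2 (limma F test, adjusted p = 0.00205) and not by NDE1 (adjusted p = 0.0534) or AOX (adjusted p = 0.07), where 70.7% of all genes passed. For NDE2 the day change in 245 AMA-7 exceeded that in 219 30P by 0.95 ± 0.17 (adjusted p = 0.000687) and that in A15 by 0.55 ± 0.17 (adjusted p = 0.0253). It was also higher in 065 BP-8 than in 219 30P, by 0.65 ± 0.17 (adjusted p = 0.0124). The excess over A15 was lost (adjusted p from 0.0679 to 0.0985) without replicate 1 of A15 or of 245 AMA-7 on day 27, or without replicate 2 of either on day 39. The excess of 065 BP-8 over 219 30P was lost without replicate 2 of 219 30P (0.53) or replicate 1 of 065 BP-8 (0.49) on day 39, and with median-ratio scaling (0.47, adjusted p = 0.0537). The excess of 245 AMA-7 over 219 30P stayed past the threshold in all 16 fits that each left out 1 library. For NDE1 the day change in 065 BP-8 was less negative than in 219 30P by 0.40 ± 0.13 (adjusted p = 0.032), which was 0.22 with median-ratio scaling of the libraries and did not pass (adjusted p = 0.195). That call was also lost without any 1 of the 4 libraries of 065 BP-8, without replicate 2 of 219 30P on day 27 (0.33) and without its replicate 1 on day 39 (0.33). Against A15 the NDE1 day change of 065 BP-8 was less negative by 0.32 and was not called (adjusted p = 0.0617). Median-ratio scaling made this 0.49 and quantile normalization 0.53, and both were called (adjusted p = 0.00876 and 0.00789). Against 245 AMA-7 it was less negative by 0.30 (adjusted p = 0.0882). Only the former scaling brought a call here (0.39, adjusted p = 0.0283), while quantile normalization gave 0.36 (adjusted p = 0.0538). For AOX the day change in 245 AMA-7 lay below that in 219 30P by -2.11 ± 0.69 (adjusted p = 0.0247). This was no longer called without replicate 1 of 219 30P on either day, replicate 2 of 245 AMA-7 on day 27 or either day 39 library of 245 AMA-7 (adjusted p from 0.0504 to 0.0835). Over all genes, 46.0% passed for 245 AMA-7 against 219 30P, 30.7% for 245 AMA-7 against A15 and 30.0% for 065 BP-8 against 219 30P. The F test of AOX passed once either day 27 library of 065 BP-8 was left out, with adjusted p = 6.99e-05 without replicate 1 and 1.77e-05 without replicate 2. With median-ratio scaling both AOX (adjusted p = 0.0475) and NDE1 (adjusted p = 0.0161) passed it.

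Between strains NDE1 gave the clearest order. At pinning it was highest in 245 AMA-7, with 89.0 ± 2.6 FPKM (SD, n = 2), followed by 219 30P with 72.6 ± 4.7 and 065 BP-8 with 71.0 ± 0.06, and it was lowest in A15 with 52.4 ± 3.8 FPKM. The neighbours 219 30P and 065 BP-8 did not differ beyond their spread (-0.03 ± 0.09, adjusted p = 0.824; 0.03 with median-ratio scaling), and the other 5 of the 6 pairs passed. At first flush 245 AMA-7 (45.6 ± 2.1 FPKM) and 065 BP-8 (44.7 ± 0.4 FPKM) did not differ beyond their spread (-0.03 ± 0.09, adjusted p = 0.836; 0.06 with median-ratio scaling), 219 30P (34.6 ± 2.2 FPKM) was next, and A15 (26.2 ± 0.9 FPKM) was again lowest. The other 5 pairs passed on that day too, although 245 AMA-7 against 219 30P did not with median-ratio scaling (0.20, adjusted p = 0.0752), nor did 065 BP-8 against 219 30P without replicate 1 of 219 30P on day 39 (0.30, adjusted p = 0.0501). On day 27 the call of 245 AMA-7 against 219 30P was lost without replicate 1 of 219 30P (0.22) or replicate 2 of 245 AMA-7 (0.26), and that of 065 BP-8 against 245 AMA-7 without replicate 2 of 245 AMA-7 (-0.29). Against A15, NDE1 was higher on day 27 by 0.75 ± 0.09 in 245 AMA-7, 0.46 ± 0.09 in 219 30P and 0.43 ± 0.09 in 065 BP-8. On day 39 it was higher by 0.78 ± 0.09, 0.39 ± 0.09 and 0.75 ± 0.09. The median of all genes against A15 stood at 0.06, 0.15 and 0.11 on day 27 and at -0.05, -0.22 and -0.12 on day 39 for these strains.

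AOX did not separate the strains at pinning. Its means were 53.9 ± 5.7 FPKM in A15, 56.5 ± 15.6 in 219 30P and 59.7 ± 4.3 in 245 AMA-7, while 065 BP-8 had 152 ± 142 FPKM (SD, n = 2). None of the 6 pairs passed on day 27 (adjusted p from 0.0937 to 0.953). Without replicate 1 of 065 BP-8 none did either (adjusted p from 0.43 to 0.846), whereas without its replicate 2 the 3 pairs with 065 BP-8 passed, by 2.06 to 2.21 (adjusted p from 7.21e-06 to 1.21e-05). At first flush the order was 219 30P with 46.7 ± 4.2 FPKM, 065 BP-8 with 36.9 ± 0.4, A15 with 26.8 ± 1.5 and 245 AMA-7 with 10.9 ± 0.9 FPKM. No duplicates of different strains overlapped on that day, and for how many of all genes this holds was not counted. AOX was lower in 245 AMA-7 than in 219 30P by 4.01-fold (adjusted p = 0.00408), than in 065 BP-8 by 3.19-fold (adjusted p = 0.0175) and than in A15 by 2.34-fold (-1.23 ± 0.49, adjusted p = 0.0491). The call against A15 was lost in 14 of the 16 fits that each left out 1 library (adjusted p up to 0.164), all but those without a day 27 library of 065 BP-8. The call against 065 BP-8 was lost without any 1 of the 4 day 39 libraries of the pair (adjusted p from 0.0593 to 0.0888). The neighbours 219 30P and 065 BP-8 (adjusted p = 0.613) and 065 BP-8 and A15 (adjusted p = 0.475) were not called. The latter pair was once replicate 1 of 065 BP-8 on day 27 was left out (0.44, adjusted p = 0.0358), as was 219 30P against A15 (0.77, adjusted p = 0.00125).

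For NDE2 the strains differed little at pinning, where 219 30P (94.3 ± 3.6 FPKM), 065 BP-8 (93.0 ± 5.0), A15 (80.9 ± 5.3) and 245 AMA-7 (73.6 ± 2.6) stood in this order. Of the 6 pairs, 245 AMA-7 was below 219 30P (-0.35 ± 0.12, adjusted p = 0.0276) and below 065 BP-8 (adjusted p = 0.0357). The former was lost without any 1 of the 4 libraries compared (adjusted p from 0.0648 to 0.124) and with median-ratio scaling (-0.27, adjusted p = 0.0773). The latter was lost without either day 27 library of 245 AMA-7 or replicate 1 of 065 BP-8 (adjusted p from 0.0784 to 0.157). At first flush the order had changed to 065 BP-8 (109 ± 17 FPKM), 245 AMA-7 (106 ± 9), A15 (78.9 ± 2.4) and 219 30P (69.6 ± 7.9). The upper 2 did not differ beyond their spread (adjusted p = 0.888), nor did the lower 2 (-0.18, adjusted p = 0.204; 0.03 with median-ratio scaling). Each of the upper 2 was higher than each of the lower 2, by 0.42 to 0.63 on the log2 scale (adjusted p from 0.000961 to 0.00971). The call of 245 AMA-7 against A15 was lost without replicate 2 of either group of day 39 (0.33 and 0.39), and that of 065 BP-8 against A15 without replicate 1 of 065 BP-8 (0.28).

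In comparisons with A15, which share the A15 libraries of a day, 1 of the 3 genes passed for each strain on day 27, and 41.6% (219 30P), 39.6% (245 AMA-7) and 43.1% (065 BP-8) of all genes did. On day 39, 1, 3 and 2 of the 3 genes passed, against 59.7%, 53.7% and 46.2% of all genes. Among the other strains on day 27, 2 of the 3 passed for 245 AMA-7 against 219 30P (47.4% of all genes), 0 for 065 BP-8 against 219 30P (26.8%) and 2 for 065 BP-8 against 245 AMA-7 (47.7%). On day 39 the counts were 3 (55.7%), 2 (45.5%) and 1 (37.9%). For 065 BP-8 against 219 30P on day 27, where limma called 0 of the 3, the unadjusted p was under 0.05 for 0 of the 3 as well.

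The route that AOX bypasses was measured by 12 genes with a symbol, 6 of complex III, 5 of complex IV and the cytochrome c gene CytC2. Averaged over the strains, 10 of the 12 fell, 0 rose and 2 did not pass, and their median change was -0.69, beside 0.11 for all genes. Of all genes tested, 32.5% fell and 44.9% rose in this average. By strain, 21.0% fell and 41.3% rose in A15, 34.8% and 27.6% in 219 30P, 25.3% and 37.8% in 245 AMA-7, and 28.1% and 34.5% in 065 BP-8. CytC2, which carries electrons from complex III to complex IV, fell by 1.98 ± 0.05 on the log2 scale, and RIP1, which encodes the Rieske protein of complex III, fell by 1.17 ± 0.05. Of the 12 genes, 11 fell in 219 30P, 10 in 065 BP-8 and 7 each in A15 and 245 AMA-7, while 1 rose in A15 and 2 in 245 AMA-7. Neither strain kept a rise under median-ratio scaling (0 and 0 genes). With quantile normalization 0 rose in A15, 1 in 245 AMA-7 and 1 in the mean of the strains. The median change of the 12 genes ran from -0.92 in 219 30P over -0.77 (065 BP-8) and -0.54 (A15) to -0.45 in 245 AMA-7. The change of AOX lay below the list's median in 245 AMA-7 (-2.35), in A15 (-0.98) and in the mean (-1.29), and above it in 219 30P (-0.24). In 065 BP-8 it lay below (-1.61), but above without replicate 1 of day 27 (-0.47).

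For complex I, which NDE1 and NDE2 bypass, the list took 21 genes by the prefix of their symbol, NdufA4 among them. Whether the product of each belongs to complex I in this fungus was not checked. In the mean of the strains 12 fell, 5 rose and 4 did not pass, with a median change of -0.17, where 32.5% of all genes fell and 44.9% rose; with median-ratio scaling 14 fell and 2 rose. Ndufab1, the acyl carrier subunit, fell by 0.76 ± 0.05 and NdufA1, an accessory subunit, rose by 0.62 ± 0.06. Falls outnumbered rises in 219 30P (15 to 1) and in 065 BP-8 (11 to 2). As deposited, rises were the more frequent in A15 (7, with 4 falls) and in 245 AMA-7 (8, with 3 falls). Median-ratio scaling gave 2 rises and 9 falls in A15, and 4 of each in 245 AMA-7. Quantile normalization gave 4 rises and 6 falls in A15, and 7 rises and 3 falls in 245 AMA-7. Shares of all genes by direction were not counted under these scalings. The change of NDE1 lay below the complex I median of -0.54 in 219 30P, of -0.25 in 065 BP-8, of 0.00 in A15 and of 0.15 in 245 AMA-7. NDE2 rose in 245 AMA-7 and fell in 219 30P, the strains with the highest and the lowest complex I median.

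**Figure D4:**
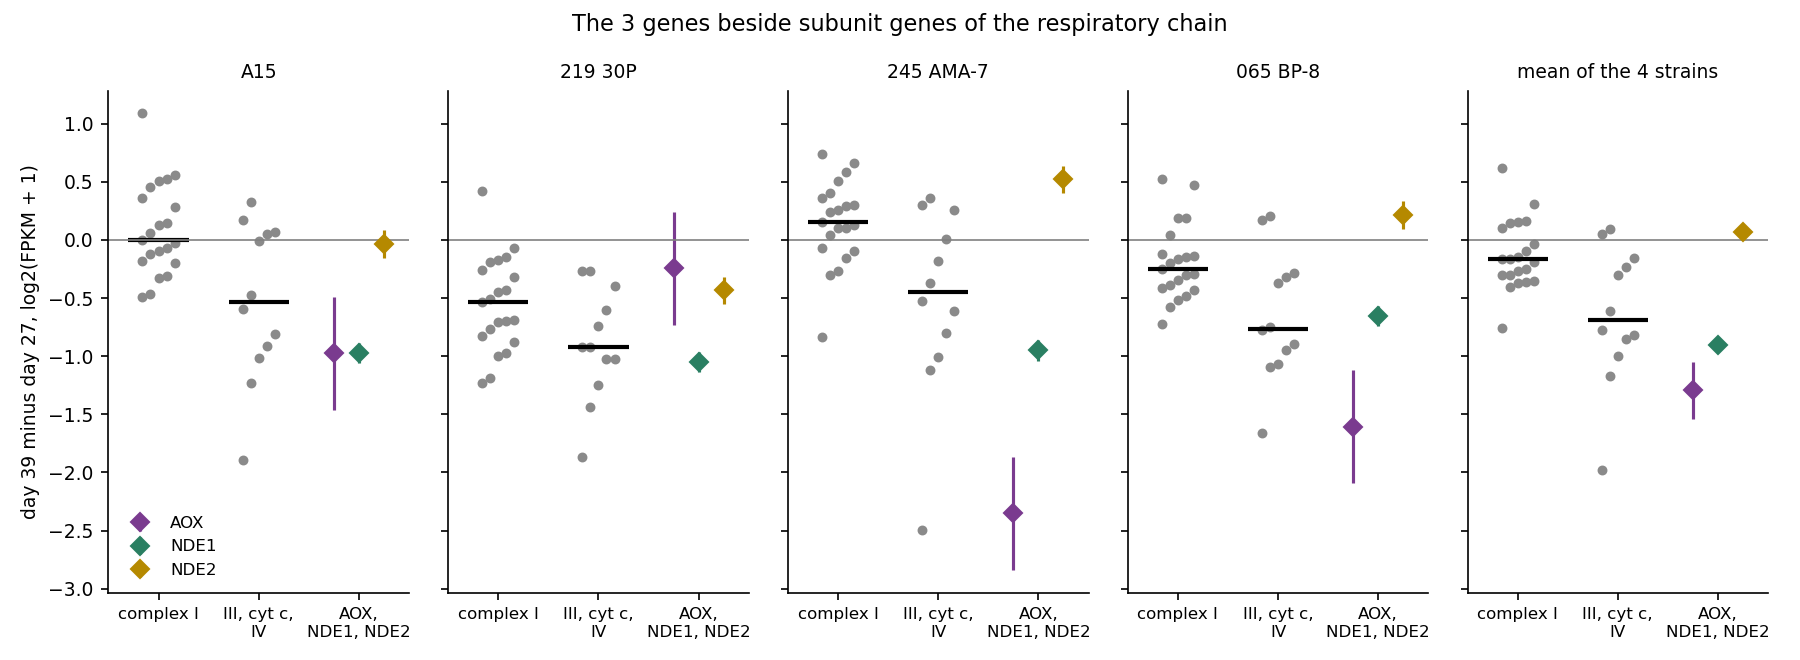
Difference of log2(FPKM + 1) between day 39 and day 27, by strain and averaged over the 4 strains, for 21 complex I genes and 12 genes of complex III, cytochrome c and complex IV (grey points, black lines are medians) and for AOX, NDE1 and NDE2 (diamonds with SE). The cytochrome route has a median below 0 in every panel (-0.92 to -0.45 in the strains), and NDE2 lies above AOX and NDE1 except in 219 30P, where AOX is higher (-0.24 against -0.44).

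FPKM is a level per length, so the genes can be set beside those they bypass. On day 27 the complex I genes had a median level of 64.4 to 89.4 FPKM per library, and NDE2 stood at 0.975 to 1.39 times that median. On day 39 NDE2 stood at 0.901 to 1.65 times the complex I median. NDE1 stood at 0.739 to 1.27 times that median on day 27 and at 0.313 to 0.607 times on day 39. AOX stood below 5 of the 12 cytochrome route genes in replicate 1 of 065 BP-8 on day 27 and below 10 to 12 of them in each of the other 15 libraries. In 245 AMA-7 on day 39 its level was at its lowest, 0.0673 times the median of these 12 genes in replicate 1.

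Each gene resembled a different set of genes over the 16 libraries, by Pearson's r of log2(FPKM + 1), given as a description of libraries that share day and strain. For NDE1 the most similar genes were AGABI2DRAFT_145028 (r = 0.975), AGABI2DRAFT_138097 (0.972) and AGABI2DRAFT_195585 (0.944), none with a symbol. Among genes with a symbol RIP1 (0.940) and ATP3, the gamma subunit of ATP synthase (0.908), came first. For NDE2 the values were lower, with AGABI2DRAFT_191595 (0.876), AGABI2DRAFT_136947 (0.876) and AGABI2DRAFT_115549 (0.865), and among genes with a symbol the complex I genes NdufA2 (0.752) and NdufA13 (0.716). Without replicate 1 of 065 BP-8 on day 27 the third gene changed for NDE1 and for NDE2. For NDE1, QCR1 (0.903) then stood in the place of ATP3. For AOX the whole list turned on this 1 library. With all 16 the list of AOX was AGABI2DRAFT_212169 (0.869), AGABI2DRAFT_204490 (0.854) and PAL2, named for phenylalanine ammonia-lyase (0.842). Without replicate 1 of 065 BP-8 on day 27 it was AGABI2DRAFT_192320 (0.971), AGABI2DRAFT_63236 (0.962) and AGABI2DRAFT_215435 (0.925). CytC2 was among the 2 most similar genes with a symbol in both cases (0.784 and 0.798).

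Catalases, which remove hydrogen peroxide, had 2 tested genes with a symbol. CAT3 rose in the mean of the strains (0.70 ± 0.08, adjusted p = 2.16e-06), at levels of 3.31 to 21.2 FPKM, and CAT1 did not pass (0.14 ± 0.08, adjusted p = 0.132). Complex II, which passes electrons from succinate to ubiquinone, had 5 genes with a symbol, and all 5 fell in the mean of the strains, with a median of -0.38 and the largest changes in SDH2 (-0.90 ± 0.05) and 1 of 2 genes named SDH3 (-0.46 ± 0.09), where 32.5% of all genes fell. By strain 5 fell in 219 30P, 4 in 065 BP-8 and 1 each in A15 and 245 AMA-7, and SDH1 rose in 245 AMA-7 (0.26 ± 0.08). Of all genes, 21.0% (A15) to 34.8% (219 30P) fell in the strains as deposited. With median-ratio scaling 4 complex II genes fell in each strain and 0 rose. The ATP synthase list held 10 genes, 1 of them the inhibitor gene INH1. Of the 10, 8 fell in the mean of the strains and 2, INH1 and ATP17, did not pass. The median was -0.42, with the largest changes in ATP2 (-0.87 ± 0.05) and ATP3 (-0.67 ± 0.05). In the strains 5 to 7 of the 10 fell, and the 1 that rose was the inhibitor gene INH1, in 245 AMA-7 (0.50 ± 0.11). With median-ratio scaling 6 to 10 fell, and with quantile normalization 2 to 6 did. The share of all genes that fell was not counted under these scalings. No superoxide dismutase gene carries a symbol in the reference table. As a marker of mushroom tissue the lectin gene abl was the 1 gene of that list found. It rose in A15 (26.8 ± 5.1 to 163 ± 78 FPKM, SD) and in 065 BP-8 (6.72 ± 3.10 to 235 ± 40 FPKM), and it did not pass in 219 30P (4.04 and 3.24 FPKM) or in 245 AMA-7 (21.7 and 39.8 FPKM). NDE1 fell in all 4 of these strains; the part of mushroom tissue in the changes was not tested.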

How the data were processed

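Compost samples of 4 strains were taken 27 and 39 days after spawning, and groups were read from the sample titles. Total RNA was purified on a caesium chloride gradient and sequenced from Illumina libraries, per the labels' protocols. BWA, Bowtie and RSEM are listed, per the submitters' processing notes; for what each served, in which version and on which genome build is not given in the sources used here. Deposited numbers were taken to be FPKM; this unit was inferred from sums that differ between libraries (832823 to 913010) and 2-decimal values. The depth in reads is not given; it was estimated from the lowest steps between values and from gene lengths that include introns (1 read in 1 kb was worth 0.124 to 0.143 FPKM), so read numbers are rough and cover counting error only.

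Genes listed in all files with a mean of 1 FPKM or more (8818 of 9520) were tested on log2(FPKM + 1) of the deposited values with limma 3.58.1 (R 4.3.3, with an intensity trend), 1 mean per group over all 16 libraries, two-sided, Benjamini-Hochberg adjusted over all genes. Each duplicate pair gives 1 degree of freedom, 8 in all. Fold changes on this scale understate those of low genes. The comparisons were day 39 against day 27 by strain and in their mean, all pairs of strains on each day, and an F test of the strain difference in the day change. Ratios and likeness were computed in Python 3.11.15. The test was checked on simulated data with independent normal noise and the same spread of a gene in every group. That check does not cover an unequal spread such as that of 065 BP-8 on day 27.

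The 3 genes are always named. Pathway lists took symbols by prefix from the Agabi_varbisH97_2 gene table of RefSeq (10373 identifiers matched, 88 with a symbol) and name the 2 genes with the largest mean day change among those that passed; catalases, superoxide dismutases and fruiting-body genes were looked up by symbol, and likeness names the 3 highest r and the 2 highest with a symbol. The prefixes do not take every subunit gene. The members and lists were chosen with earlier results of these data known. Alternatives changed the pseudocount, filter, scaling, variance trend and samples, and added the replicate number as a block.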

Additional observations from a re-analysis of the deposited data

Results flagged for a closer look

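The day change of NDE2 differed between the strains (limma F test, adjusted p = 0.00205). It was higher in 245 AMA-7 than in 219 30P by 0.95 on the log2 scale, higher in 245 AMA-7 than in A15 by 0.55, and higher in 065 BP-8 than in 219 30P by 0.65. The day change of NDE1 was higher, that is less negative, in 065 BP-8 than in 219 30P by 0.40. For AOX the day change in 245 AMA-7 minus that in 219 30P was -2.11. Each was picked out because a test of a difference between strains passed at an adjusted p under 0.05. For NDE1 and AOX this was only the test of the named pair of strains. Neither gene passed the limma F test (adjusted p = 0.0534 for NDE1 and 0.07 for AOX), which 70.7% of all genes passed. Groups of 2 libraries are too small for a test of single values within a group; the duplicates of 065 BP-8 on day 27, which stood apart for AOX, are described with the results.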

How the results depend on the processing

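NDE1 stayed lower on day 39 and past the threshold in all 125 alternatives tried for its 5 day changes (-0.61 to -1.23). Of 54 results followed, 42 kept their direction and call under median-ratio scaling, 46 under quantile normalization and 54 with a pseudocount of 0.1; where a result changed, the cause was not tested.

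AOX in 245 AMA-7 against A15 on day 39 was lost with a pseudocount of 5 (-1.003), no filter (-1.23, adjusted p = 0.0553), median-ratio scaling (-1.21) and limma without a trend (-1.23). With the replicate number as a block it was -1.23 (adjusted p = 0.0575), and the block changed no other of these calls. Sample titles do not say whether the numbers pair the samples. Deviations of same-numbered libraries correlated between -0.272 and 0.167 over 28 pairs of groups, with 5 above 0.1. What size a pairing would give was not worked out, so these values do not settle it.

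The F test gave an adjusted p for NDE1 of 0.0499 with a filter of mean 5 FPKM, 0.0161 with median-ratio scaling, 0.0193 with quantile normalization and 0.0377 without the A15 libraries, and for AOX of 0.0475 and 0.0403 with the respective scalings. AOX in A15 passed its day test with them (-1.23 and -1.22) and with the 4 libraries compared alone (-0.98). Calls were lost for NDE2 in 245 AMA-7 against 219 30P on day 27 (-0.27 and -0.31), for NDE1 in that pair on day 39 with median-ratio scaling (0.20), and for NDE2 in 065 BP-8 against 245 AMA-7 on day 27 with quantile normalization (0.29), without a trend (0.33) and with 4 libraries (0.33).

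Signs turned, without a call, with median-ratio scaling for the mean day change of NDE2 (-0.037), AOX in 219 30P against A15 on day 27 (-0.10, and -0.040 with quantile normalization), NDE2 in that pair on day 39 (0.027), NDE1 (0.030, and 0.0021) and NDE2 (0.042) in 065 BP-8 against 219 30P on day 27, and NDE1 in 065 BP-8 against 245 AMA-7 on day 39 (0.055, and 0.011). They turned for the difference in day change of NDE1 between 219 30P and A15 (0.27 and 0.28), 245 AMA-7 and 219 30P (-0.17 and -0.11) and, with a pseudocount of 5, 245 AMA-7 and A15 (-0.014).

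With only the 4 libraries compared, AOX lost its day call in 065 BP-8 (-1.61), and NDE1 lost its calls for 065 BP-8 against A15 (0.43) and 245 AMA-7 (-0.32) on day 27. AOX passed on day 39 for 219 30P (0.77) and 065 BP-8 (0.44) against A15 and for 065 BP-8 against 219 30P (-0.33). Such fits called 1849, 996 and 2696 genes for 065 BP-8 on day 27 against A15, 219 30P and 245 AMA-7, against 3799, 2360 and 4210.

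Leaving out 1 library at a time gave these ranges where a call or a sign changed. The day change ran for AOX from -1.08 to -0.87 in A15, from -0.53 to 0.036 in 219 30P and from -2.74 to -0.47 in 065 BP-8, and for NDE2 from -0.10 to 0.032 in A15, from -0.55 to -0.32 in 219 30P and from 0.050 to 0.38 in 065 BP-8. Its difference between strains ran for NDE1 in 245 AMA-7 against A15 from -0.049 to 0.095. In 065 BP-8 it ran for NDE1 from 0.25 to 0.39 against A15 and from 0.33 to 0.46 against 219 30P. For AOX it ran from 0.45 to 1.01 (219 30P against A15), -1.48 to -1.27 (245 AMA-7 against A15) and -2.39 to -1.83 (245 AMA-7 against 219 30P). In 065 BP-8 it ran for AOX from -1.76 to 0.51 against A15, from -2.50 to -0.23 against 219 30P and from -0.39 to 1.88 against 245 AMA-7. For NDE2 it ran from -0.51 to -0.29 (219 30P against A15), 0.46 to 0.64 (245 AMA-7 against A15) and 0.485 to 0.81 (065 BP-8 against 219 30P). The adjusted p of the F test ran from 1.77e-05 to 0.17 for AOX and from 0.0418 to 0.148 for NDE1. On day 27 AOX ran from -0.24 to 0.32 (219 30P against A15), -0.18 to 0.39 (245 AMA-7 against 219 30P), -0.062 to 2.21 (065 BP-8 against A15), -0.10 to 2.17 (against 219 30P) and -0.21 to 2.06 (against 245 AMA-7). On that day NDE1 ran from 0.22 to 0.36 (245 AMA-7 against 219 30P), -0.097 to 0.034 (065 BP-8 against 219 30P) and -0.35 to -0.29 (against 245 AMA-7), and NDE2 in these 3 pairs from -0.39 to -0.31, -0.075 to 0.034 and 0.28 to 0.39. On day 39 AOX ran from 0.69 to 0.86, -1.31 to -1.15 and 0.39 to 0.50 (219 30P, 245 AMA-7 and 065 BP-8 against A15) and 1.59 to 1.75 (065 BP-8 against 245 AMA-7), NDE1 from 0.30 to 0.43 (065 BP-8 against 219 30P) and -0.073 to 0.019 (065 BP-8 against 245 AMA-7), and NDE2 from 0.33 to 0.51 (245 AMA-7 against A15), 0.28 to 0.61 (065 BP-8 against A15) and -0.14 to 0.19 (065 BP-8 against 245 AMA-7).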
